A study of Mus musculus with 12 samples.

Results

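Potassium channel genes were taken by name. A gene belonged to the set when its symbol was Kcn followed by lower-case letters and a number, and 92 of the 55679 genes in the gene table met this rule. By the letters in their names they fell into 30 pore subunits of voltage-gated channels (Kcna, Kcnb, Kcnc, Kcnd, Kcnh and Kcnq), 10 electrically silent voltage-gated subunits (Kcnf, Kcng, Kcns and Kcnv), 15 inward rectifiers (Kcnj), 14 K2P channels with paired pore domains (Kcnk), 8 calcium- or sodium-activated channels (Kcnma, Kcnn, Kcnt and Kcnu) and 15 auxiliary subunits (Kcnab, Kcne, Kcnip and Kcnmb). Total RNA was sequenced from the whole heart and whole lung of 6 male mice aged 9 to 13 weeks on the 129S6/SvEvTac background, which gave 12 libraries. WT mice (3) carried unaltered Adam19, a gene for a membrane-bound metalloprotease. KO mice (3) were homozygous for an allele in which tdTomato replaced exons 6 and 7 of Adam19, so all their cells carried it. Each mouse gave a heart and a lung library. The main fits did not pair them, and the mouse as a block was run as an alternative.

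Potassium channels let potassium leave the cell and so bring an excited membrane back towards rest. In heart muscle, voltage-gated channels end the action potential, inward rectifiers hold the resting voltage between beats, and auxiliary subunits set how fast the pores open and close. In lung, channels of the airway and alveolar epithelium, of smooth muscle and of leukocytes keep the membrane voltage that drives chloride and fluid transport, tone and calcium entry. 4 of the genes are standard marks of cardiac currents. Kcnj2 forms the inward rectifier current, Kcnd2 the fast transient outward current, Kcnh2 the rapid delayed rectifier and Kcnq1 the slow delayed rectifier. Kcnq1 is also used by epithelia.

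The stretch of coding sequence that defines the family is shown first, because it separates the pore subunits of all classes from the auxiliary subunits. In the channel it forms the selectivity filter. The coding sequence of 1 annotated transcript for each gene (GENCODE vM39, assembly GRCm39) was searched for 5 codons in a row that spell threonine or serine, then valine, isoleucine, alanine, threonine, phenylalanine, leucine or cysteine, then glycine, then tyrosine, phenylalanine or leucine, then glycine. The 15 bases of those codons are in capitals, with 6 bases on each side in lower case.
Kcnj2: cagacaACCATTGGCTATGGTttcagg
Kcnh2: ctcaccAGCGTGGGCTTTGGCaatgtc
Kcnd2: atgacaACACTGGGGTATGGCgacatg
Kcnk3, first: atcaccACCATCGGCTATGGTcatgcg
Kcnk3, second: ctcaccACCATCGGCTTCGGCgactat
Kcnk1, first: ctctccACCACAGGCTATGGCcacacg
Kcnk1, second: ctgagcACCATCGGCCTGGGGgactat
Kcnj13: caacttACAATTGGTTATGGTaccatg
Kcnj11: caggtgACCATTGGTTTCGGCgggcgc
Kcnj8: caagtgACCATTGGGTTTGGAgggaga

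The capitals lie at chr11:110963033-110963047 on the forward strand for Kcnj2, in exon 2 of 2. For Kcnh2 they lie at chr5:24530553-24530567 on the reverse strand, in exon 7 of 15. The second signature of Kcnk3 lies at chr5:30779546-30779560 and that of Kcnk1 at chr8:126752068-126752082, both on the forward strand. The signatures of Kcnj13 (chr1:87316743-87316757), Kcnj11 (chr7:45748920-45748934) and Kcnj8 (chr6:142512174-142512188) are on the reverse strand. In Kcnd2 and in the first signature of Kcnk3 and Kcnk1 an intron splits the codons, so they have no single 15-base interval.

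In all, 90 signatures were found in 77 genes and 0 in the 15 auxiliary genes. Each voltage-gated, silent, inward rectifier and ion-activated gene held 1, and 13 of the 14 K2P genes held 2. The codons ended in glycine-tyrosine-glycine in 61, in glycine-phenylalanine-glycine in 26 and in glycine-leucine-glycine in 3, which were 1 each in Kcnk1, Kcnk6 and Kcnk7. All 8 Kcnh genes held the phenylalanine form. Among the inward rectifiers only Kcnj11 and Kcnj8, the pore subunits of ATP-sensitive channels, had it, and the other 13 had tyrosine. An intron split 16 signatures, those of the 3 Kcnd genes and the first signature of 13 K2P genes, and the other 74 lay within 1 exon.

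Gene values are the deposited log2 values. For genes with 1 transcript they behave as log2 of 1 + the estimated read count plus a constant for each library. For genes with more transcripts they can differ from the summed counts, as for Kcnq1 below. Estimated counts summed to between 17674788 and 35862932 for a library, and 3 counts correspond to a gene value of 1.37 to 2.80. Below that, a difference depends mainly on the 1 added before the log. Adam19 stood at 9.17 to 10.27 in WT hearts, 6.01 to 6.67 in KO hearts, 9.12 to 9.41 in WT lungs and 3.21 to 4.45 in KO lungs, so its values follow the genotype labels. Summed values of 8 heart muscle markers were 20.83 to 21.09 in hearts and 13.45 to 14.70 in lungs, and those of 9 lung epithelium markers 18.88 to 19.17 in lungs and 12.54 to 13.23 in hearts. WT lung 2 stood apart in 4 skeletal muscle markers (11.34, against 3.63 to 5.32 in the other lungs). The small structural RNAs 7SL and 7SK took 3.07% to 37.9% of a library's estimated counts.

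Of the 92 genes, 90 were above 0 in at least 1 library, and Kcnj6 and Kcnk18 were listed at 0 in all 12. A group mean of at least 6 was reached in both organs by 16 genes, in heart alone by 19 and in lung alone by 13, and 44 stayed under 6 in every group. The inward rectifiers (5 in both organs, 3 in heart alone, 1 in lung alone) and the voltage-gated pore subunits (5, 7 and 4) had most genes at that level. The K2P genes had 2 in both organs, 0 in heart alone and 4 in lung alone. The authors' own mark for a detected gene was carried by 33 of the 92 genes, and by only 2 of the 19 genes that reached 6 in heart alone. Over the whole table it was carried by 93 of 806 genes at that level in heart alone and by 1838 of 1881 in lung alone. Of the 35 channel genes that reached 6 in heart, with or without lung, 18 carried it.

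**Figure D1:**
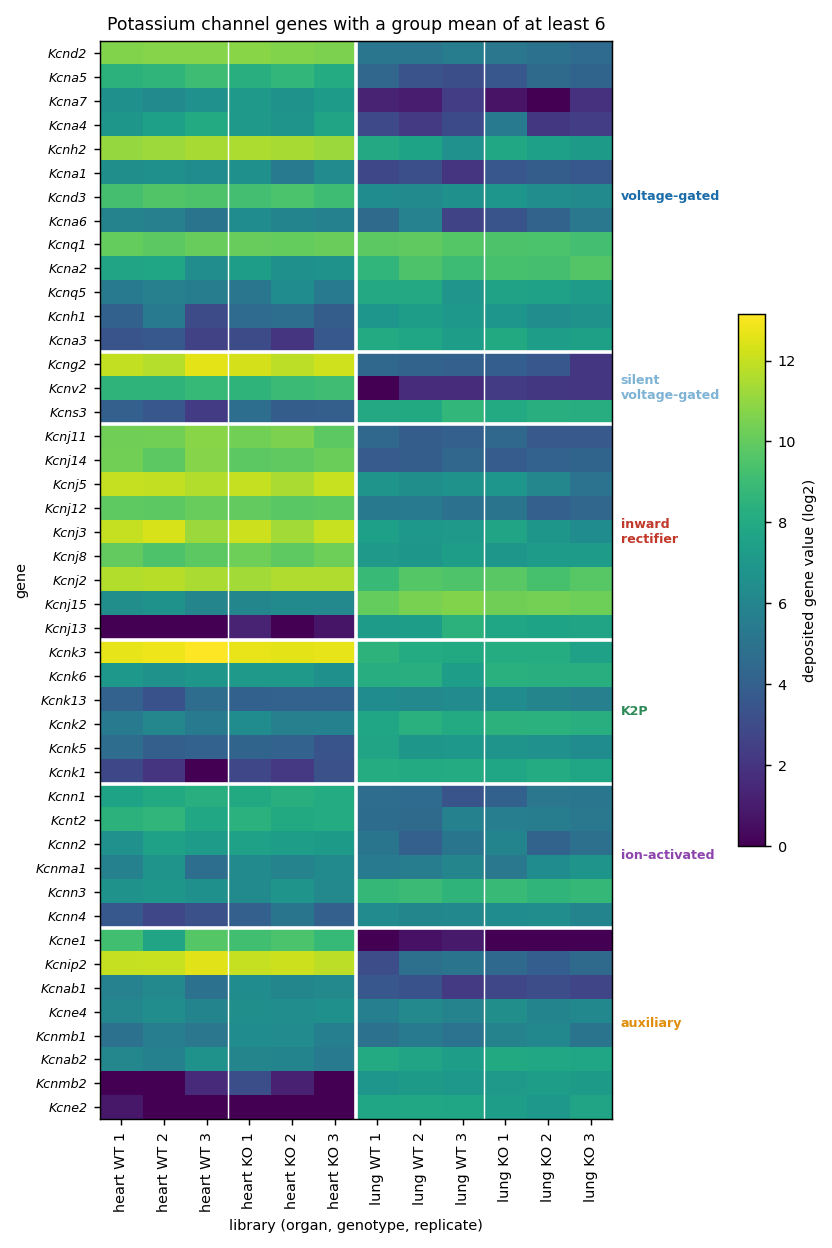
Gene values (log2, color) of potassium channel genes with a group mean of at least 6 in at least 1 group (rows, by class) in the 12 libraries (columns, by organ and genotype). The heart columns are bright for Kcnip2, Kcnk3 and Kcng2 and the lung columns for Kcnj15 and Kcnk1, and Kcnq1 is bright in all 12.

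Levels of different genes were set side by side only per length, as each gene's share of the summed estimated counts per kilobase over the 92 genes in a library. In WT hearts the largest share belonged to Kcnip2, the auxiliary subunit of the transient outward channels, with 20.7% ± 1.88 (SD, n = 3). Kcnk3, the acid-sensitive background channel TASK-1, followed with 14.6% ± 1.04. Next were Kcnj3, a pore subunit of the acetylcholine-activated channel, with 7.12% ± 3.06, Kcng2, a silent subunit, with 7.04% ± 1.71, Kcnh2 with 6.45% ± 0.20 and Kcnj2 with 5.62% ± 0.99. Kcnj3, Kcng2 and Kcnh2 differed by less than the SDs of Kcnj3 and Kcng2, so their order is not settled, while Kcnh2 was above Kcnj2 in all 3 WT hearts. When 200 bases were taken off each transcript length to approximate the positions a read can start from, the Kcng2 share rose to 11.9%.

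In WT lungs Kcnj15, an inward rectifier of epithelia, held 12.6% ± 2.32 and Kcnq1 held 12.5% ± 0.60, which differ by less than their SDs. Kcne2, an auxiliary subunit that can pair with Kcnq1, held 5.43% ± 0.16, Kcnj2 held 5.31% ± 1.26 and Kcnk1, the K2P channel TWIK-1, held 5.14% ± 0.42. Kcna3, the voltage-gated channel of lymphocytes and macrophages, held 4.87% ± 1.26 and the silent subunit Kcns3 4.65% ± 1.77. With the shortened lengths Kcnq1 stood at 18.6%, so the tie with Kcnj15 rests on the length used. Only Kcnj2 and Kcnq1 were among the 10 largest shares of both organs.

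By class, auxiliary subunits made up 22.9% ± 2.10 of the WT heart sum and 16.4% ± 0.45 of the WT lung sum, and voltage-gated pore subunits 19.8% ± 0.40 and 29.8% ± 3.72. K2P genes held 15.2% in heart and 18.2% in lung, and ion-activated genes 2.20% and 6.34%. In these 4 classes the 3 hearts and the 3 lungs did not overlap. Shares overlapped for the inward rectifiers (27.5% to 34.6% in heart, 20.3% to 28.2% in lung) and the silent subunits (6.37% to 9.70%, 3.94% to 6.96%). Class shares were computed with full transcript lengths only. The shares of Kcng2 and Kcnq1 moved with the length used, so these overlaps may depend on it. The sum itself was larger in heart. On the scale of TPM, in which counts per length are scaled to 1 fixed total over all genes, it came to 496 ± 70.1 (SD) in WT hearts and 76.3 ± 27.1 in WT lungs. With 7SL and 7SK taken out of the total it was 658 (range 553 to 815) in heart and 251 (201 to 292) in lung, so the ranges stay apart while the ratio depends on those RNAs.

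**Figure D2:**
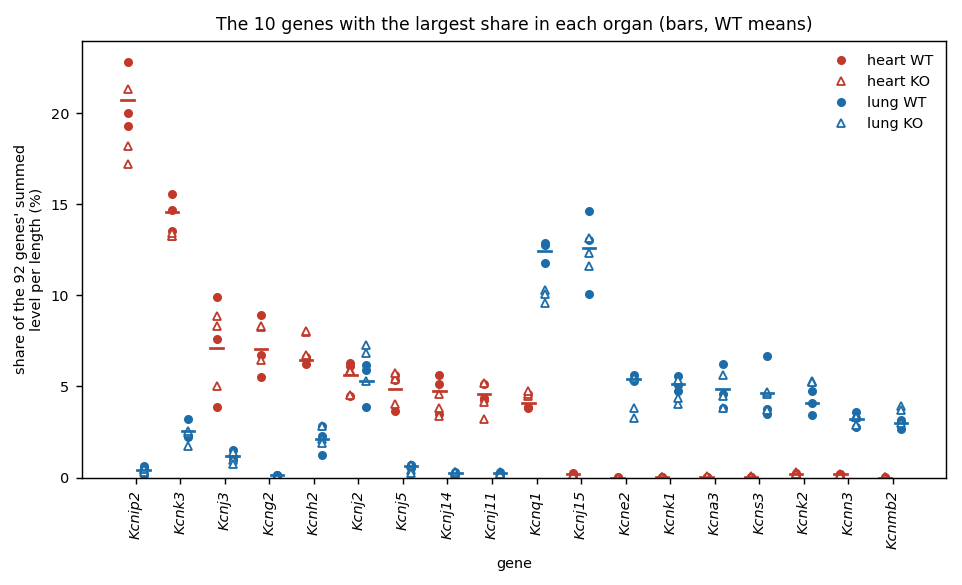
Share of the summed level per length of the 92 genes (percent, linear axis from 0) for the 10 genes with the largest share in heart and in lung. Bars are WT means, filled circles WT libraries and open triangles KO libraries, and Kcnip2 leads in every heart while Kcnj15 and Kcnq1 lead in the WT lungs.

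Lung was compared with heart within each genotype. In WT mice, 62 of the 92 genes passed the filter (a value of at least 3.46 in at least 3 libraries), 29 of them with every library of both organs at that value, 9 through heart alone, 10 through lung alone and 14 in other ways. The other 30 were not tested. A gene was called when its adjusted p was under 0.05, its fold was at least 1.5 and a group mean reached 6. On these terms 23 of the 62 (37.1%) were higher in heart and 18 (29.0%) higher in lung. Among all 16636 genes tested 20.5% were called higher in heart and 29.7% higher in lung. Genes that passed the filter through 1 organ alone had to differ, so nothing is read from the distance between these shares. The 29 genes with every library at the filter value gave 15 heart and 8 lung calls in a fit of such genes alone. That fit tested 13242 genes in all, of which 3181 were called higher in heart and 4176 higher in lung. The median log2 difference (lung minus heart) was −0.49 for the 62 genes and 0.30 for all genes. WT hearts and lungs did not overlap for 54 of the 62, against a background of 68.7%. In whole organs, fewer cells of a type and less RNA per cell cannot be told apart.

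In KO mice, other animals, 26 of 62 genes tested were called higher in heart and 18 higher in lung, against 22.3% and 30.9% of all genes. All 41 genes called in WT were called in KO in the same direction, which is 18 of the 18 lung calls (100%) and 23 of the 26 heart calls (88.5%). The 3 further heart calls in KO were Kcna6, Kcnab1 and Kcnq1. The WT and KO comparisons share no library. The share of all genes called in both genotypes was not computed. Calls took in 8358 of 16636 genes tested in WT and 8934 of 16802 in KO, so nothing particular to the channel genes is read from this agreement.

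The calls were also counted by class, beside the same 20.5% of all genes called higher in heart and 29.7% in lung. Genes that passed the filter through 1 organ alone are in these counts and medians. The inward rectifier median is itself the value of a gene that passed through heart alone. Nothing is therefore read from the distance of a class from all genes. Of 11 inward rectifiers tested in WT, 7 were higher in heart and 2 in lung, with a median of −3.44. The 21 voltage-gated pore subunits gave 8 heart and 5 lung calls (median −1.20), and the 4 silent subunits 2 and 1, a lung share (25%) near that of all genes. Of 8 K2P genes, 1 was higher in heart and 5 in lung, with a median of 2.68. Ion-activated genes gave 3 heart and 2 lung calls of 6, and auxiliary genes 2 (16.7%) and 3 (25%) of 12, and the lung share of the ion-activated genes (33.3%) and both shares of the auxiliary genes lay near those of all genes.

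**Figure D3:**
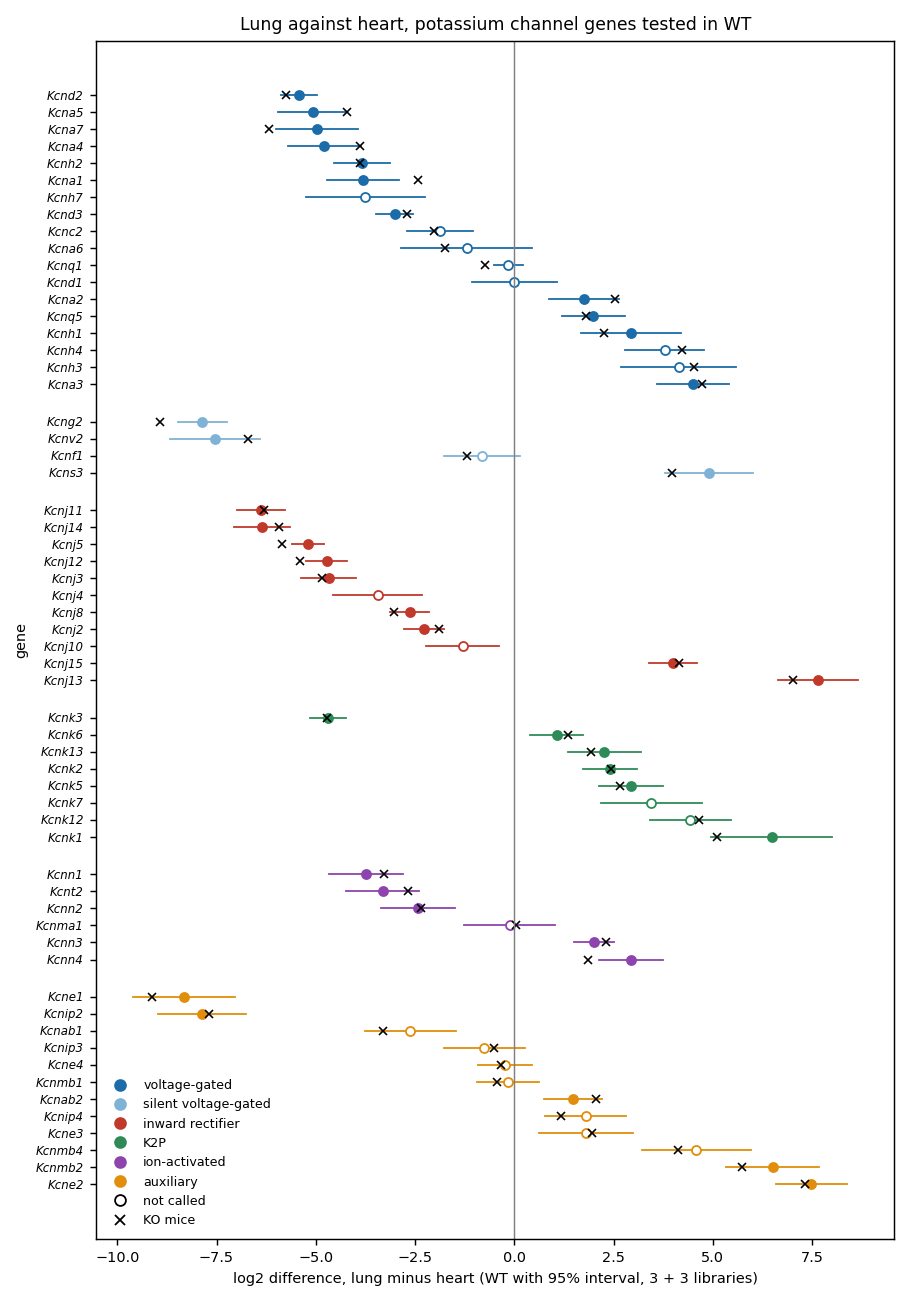
Log2 difference lung minus heart for potassium channel genes tested in WT mice, by class. Dots are WT estimates with 95% intervals, filled where called, and crosses are the KO estimates where tested. WT values run from −8.32 (Kcne1) to 7.48 (Kcne2), beyond which lies only Kcnj13, whose WT hearts are listed at 0.

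Among voltage-gated pore subunits, Kcnd2 was at 10.67, 10.76 and 10.75 in WT hearts and at 5.18, 5.18 and 5.53 in WT lungs. Every heart was above every lung, and the difference was −5.43 ± 0.20 (SE), with an adjusted p of 3.529e-07, and −5.76 ± 0.19 in KO mice. Kcnd3, the other pore subunit of the fast transient outward current that was called, was also higher in heart (−3.02 ± 0.20). Kcnh2 was at 11.09, 11.20 and 11.42 in heart and at 7.91, 7.64 and 6.67 in lung, a difference of −3.83 ± 0.31 with an adjusted p of 1.527e-05, and it was −3.88 ± 0.19 in KO mice. The delayed rectifier subunit Kcna5 (−5.08 ± 0.38) and the transient outward subunit Kcna4 (−4.79 ± 0.40) were higher in heart as well, as was Kcna7 (−4.97 ± 0.45). Kcna7 was at 1.28, 0.99 and 2.37 in WT lungs, with WT lungs 1 and 2 below the level of 3 counts. Kcna4 stood at 5.44 in KO lung 1 and at 2.11 and 2.38 in the other KO lungs, with no overlap with any heart.

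Lung was higher for Kcna3, at 8.05, 7.71 and 7.35 in WT lungs and at 3.42, 3.64 and 2.53 in WT hearts (4.51 ± 0.39, adjusted p 2.336e-05). Its neighbor Kcna2, a delayed rectifier subunit best known from nerve, was higher in lung too (1.75 ± 0.39). Kcnh1, of the same family as Kcnh2 but with the opposite direction, gave 2.94 ± 0.55. Kcnq5 gave 1.99 ± 0.34.

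On the deposited gene values, Kcnq1 stood apart from the other cardiac marks. It was at 10.06, 9.82 and 10.08 in WT hearts and at 9.84, 9.96 and 9.70 in WT lungs, so the organs overlapped. The difference was −0.15 ± 0.16 (95% interval −0.51 to 0.21, adjusted p 0.432). In KO mice hearts were at 10.09, 10.04 and 10.17 and lungs at 9.47, 9.42 and 9.21 without overlap (−0.73 ± 0.11, adjusted p 4.628e-04). The value depended on the scale. Scaling each library to its total without 7SL and 7SK gave 0.69 in WT (adjusted p 0.0104) and 0.04 in KO, with the median of all WT genes at 1.17 in place of 0.30, and summing estimated counts over the transcripts of the gene gave −1.02 in WT (adjusted p 3.34e-04), a heart call.

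Among auxiliary subunits, Kcnip2 was at 11.998, 12.07 and 12.54 in WT hearts and at 3.09, 4.84 and 5.05 in WT lungs (−7.87 ± 0.48, adjusted p 3.416e-06). Together with Kcnd2 and Kcnd3 it makes the channel of the fast transient outward current, and all 3 were higher in heart in both genotypes. Kcne1, which slows Kcnq1 to give the cardiac slow delayed rectifier, was at 9.18, 7.67 and 9.70 in WT hearts and at 0, 0.63 and 0.96 in WT lungs (−8.32 ± 0.56, adjusted p 5.829e-06), all 3 lungs below the level of 3 counts. All KO lungs were listed at 0, and against 3 counts in each of them KO hearts were at least 159-fold higher.

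Kcne2, the relative of Kcne1 that keeps Kcnq1 open in epithelia, had the opposite direction. It was at 7.78, 7.83 and 7.71 in WT lungs and at 0.87, 0 and 0 in WT hearts (7.48 ± 0.39, adjusted p 1.653e-06), all of these hearts below the level of 3 counts. KO hearts were listed at 0, and KO lungs were at least 42.6-fold higher than 3 counts in each of those hearts. Both genes lie on chromosome 16, Kcne2 at chr16:92089219-92095027 on the forward strand and Kcne1 at chr16:92142870-92156356 on the reverse strand, 47843 bases apart. Of the 17 pairs of neighboring channel genes within 500000 bases of each other, this was the only one in which both genes were called and the directions differed. The 4 other pairs with both genes called had 1 direction. Kcna3 and Kcna2 (62851 bases apart) were higher in lung, and Kcna5 and Kcna1 (104985), Kcna7 and Kcnj14 (404812) and Kcnj14 and Kcnj11 (269169) were higher in heart.

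Kcnmb2, an auxiliary subunit that inactivates large-conductance calcium-activated channels, was at 6.93, 7.17 and 7.01 in WT lungs and at 0, 0 and 1.58 in WT hearts (6.51 ± 0.51). All of these hearts were below the level of 3 counts. Kcnab2, a cytoplasmic subunit of Kcna channels, was also higher in lung (1.48 ± 0.32).

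Among the silent subunits, which have the signature but carry current only together with other voltage-gated subunits, Kcng2 was at 11.93, 11.69 and 12.59 in WT hearts and at 4.404, 4.19 and 4.03 in WT lungs (−7.86 ± 0.27, adjusted p 2.794e-07). Part of its sequence overlaps Slc66a2 on the opposite strand. Kcnv2 was at 8.56, 8.55 and 8.82 in heart and at 0, 1.68 and 1.65 in lung (−7.53 ± 0.50), all of these lungs below the level of 3 counts. Kcns3 had the other direction, at 7.93, 7.97 and 8.73 in lung and at 4.03, 3.55 and 2.32 in heart (4.91 ± 0.48).

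Most of the inward rectifiers that were called were higher in heart. Kcnj2 was at 11.65, 11.73 and 11.49 in WT hearts and at 8.88, 9.66 and 9.50 in WT lungs, with no overlap (−2.28 ± 0.22, adjusted p 4.135e-05) and −1.89 ± 0.15 in KO mice. Its relatives in the same current differed more between the organs, Kcnj12 by −4.73 ± 0.22 and Kcnj14 by −6.35 ± 0.31. Kcnj14 shares 1242 bases at 99.1% identity with the transcript Gm5522 on the same strand, so reads may be split between them. Kcnj11, the pore of the ATP-sensitive channel of heart muscle, was at 10.29, 10.35 and 10.83 in heart and at 4.41, 3.88 and 4.03 in lung (−6.38 ± 0.26, adjusted p 5.745e-07). Kcnj8, the ATP-sensitive pore of vessels, differed less (−2.64 ± 0.21), with lungs at 6.97 to 7.30.

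Kcnj3 and Kcnj5 together form the acetylcholine-activated channel, which in the heart is best known from atrial muscle and the pacemaker. Kcnj3 was at 12.01, 12.37 and 11.17 in WT hearts and at 7.44, 7.01 and 7.09 in WT lungs (−4.67 ± 0.30). Kcnj5 was at 12.01, 11.95 and 11.65 in heart and at 6.78, 6.53 and 6.71 in lung (−5.20 ± 0.17). Within each genotype the heart with the lowest Kcnj3 and Kcnj5 also had the lowest Myl7, an atrial myosin light chain. These were WT heart 3 (Kcnj3 11.17, Kcnj5 11.65, Myl7 12.47, with Myl7 at 14.78 and 14.49 in the other WT hearts) and KO heart 2 (11.33, 11.49 and 12.76, with Myl7 at 15.03 and 15.41 in the other KO hearts). Kcna5, another subunit known from atrial muscle, was instead highest in those hearts (9.06 and 8.70). The part of atrial tissue in these values was not tested.

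The 2 inward rectifiers called higher in lung were Kcnj15 and Kcnj13, both known from epithelia. Kcnj10 was not called, with WT hearts at 3.59, 3.99 and 4.18 and WT lungs at 2.30, 2.84 and 2.73. Kcnj15 was at 10.03, 10.51 and 10.67 in WT lungs and at 6.51, 6.73 and 5.98 in WT hearts (3.99 ± 0.26, adjusted p 5.284e-06), and 4.15 ± 0.14 in KO mice. Kcnj13 was at 7.21, 7.32 and 8.44 in WT lungs and listed at 0 in all WT hearts, a difference of at least 35.8-fold against 3 counts in each heart.

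K2P channels pass a background current at all voltages, and most of those called were higher in lung. Kcnk1 was at 8.15, 8.02 and 8.09 in WT lungs and at 2.86, 1.95 and 0 in WT hearts (6.48 ± 0.66, adjusted p 5.873e-05). WT hearts 2 and 3 were below the level of 3 counts, and leaving out 1 library gave 5.68 to 7.11. The second signature of Kcnk1 has the leucine codon shown above. Kcnk2, the stretch-sensitive channel TREK-1, was at 7.77, 8.35 and 8.04 in lung and at 5.35, 6.08 and 5.47 in heart (2.42 ± 0.30). Kcnk5 (2.94 ± 0.35) and Kcnk13 (2.26 ± 0.40) were higher in lung too. Kcnk6 gave 1.07 ± 0.29 and lost its call without WT lung 1 or WT lung 2 (adjusted p 0.0515 and 0.0540). Kcnk3 was the exception, at 12.66, 12.82 and 13.15 in WT hearts and at 8.48, 8.07 and 7.98 in WT lungs (−4.70 ± 0.20, adjusted p 6.187e-07). Heart muscle markers were present in all lungs at the values given above, and their part in the lung values of these heart genes was not tested.

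In the ion-activated class, the small-conductance calcium-activated channels were divided. Kcnn1 (−3.73 ± 0.41) and Kcnn2 (−2.42 ± 0.41) were higher in heart and Kcnn3 (2.01 ± 0.22) in lung. Kcnn4, the intermediate-conductance channel of leukocytes and epithelia, was at 6.32, 6.05 and 6.14 in WT lungs and at 3.62, 2.81 and 3.26 in WT hearts (2.94 ± 0.35). The sodium-activated Kcnt2 was higher in heart (−3.32 ± 0.40).

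Outside the name rule, a list of 30 genes that work with these channels (partner subunits, scaffolds, regulators, sodium pumps and potassium-chloride carriers) was counted in the same fits. Of 27 tested in WT, 8 were higher in heart and 8 in lung, and of 28 in KO mice 10 and 10. The backgrounds are again 20.5% and 29.7% of all genes in WT and 22.3% and 30.9% in KO, and the WT lung share lay at its background. Abcc8 and Abcc9, the sulfonylurea receptors that surround Kcnj11 and Kcnj8, were both higher in heart in WT mice (−6.04 ± 0.24 and −5.52 ± 0.14). So was the carrier Slc12a7 (−2.60). Higher in lung were Akap5, an anchor of protein kinase A (5.78), and the carrier Slc12a2 (1.71). Kcnrg and Lrrc26, an auxiliary protein of large-conductance channels, were also called higher in lung and were listed at 0 in all WT hearts. Dpp6 and Dpp10, partners of Kcnd channels, were not tested in WT, since too few libraries reached the filter.

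Transcripts were compared in the same way, after each library's constant was added. The table holds 405 transcripts of the 92 genes. In WT mice 90 were tested and 72 called, 31 higher in lung and 41 in heart, against 37.8% of all transcripts. KO mice gave 84 of 97 (35 and 49), against 50.9%. A transcript was called on adjusted p and fold alone, and transcript estimates share reads within a gene. Kcnj2 and Kcnd2 each had 1 transcript. Kcnh2 drew on 2, of 3213 bases (ENSMUST00000115098.7, 52.8% of the gene's estimated counts in WT hearts and 46.0% in WT lungs) and of 4401 bases (ENSMUST00000036092.10, 46.5% and 52.6%), and both were higher in heart (−4.10 ± 0.47 and −3.71 ± 0.22). The main Kcnq1 transcript (ENSMUST00000009689.11) held 99.1% of the counts in heart and 93.5% in lung, and it was called higher in heart (−1.11 ± 0.13), whereas the gene value was not.

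Kcnip2 in WT hearts drew on ENSMUST00000079431.10 (43.9%) and ENSMUST00000162528.9 (37.0%). The range over the 3 hearts was 33.5% to 52.2% for the former and 32.4% to 41.6% for the latter, so their order is not settled. Both transcripts of Kcne1 had similar shares in WT hearts (48.6% and 51.5%). In Kcns3, ENSMUST00000055673.2 was listed at 0 in all hearts and held 36.0% (range 29.1% to 46.1%) in WT lungs, but the heart counts of the gene were only 7.80 on average. In Kcnj15, ENSMUST00000113856.8 was listed at 0 in WT hearts and held 25.9% in WT lungs, whereas KO hearts gave it 22.3%.

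KO was compared with WT in each organ to see whether the loss of Adam19 went with other channel values. In lung, 53 of the 92 genes were tested and 0 called by limma (11 of 16551 genes, 0.0665%, were called in all). An unadjusted p under 0.05 was reached by 3 of the 53, against 5.93% of all genes, and limma-voom gave 0 calls and 3. KO and WT lungs did not overlap for 9 of the 53, against 12.8%. Kcnq1 was at 9.84, 9.96 and 9.70 in WT and at 9.47, 9.42 and 9.21 in KO lungs, a difference of −0.47 ± 0.16 (95% interval −0.82 to −0.11, adjusted p 0.806). Over the alternatives run, Kcnq1 differed by −0.534 to −0.188. Its share of the summed level per length was 11.8% to 12.9% in WT and 9.61% to 10.3% in KO lungs (exact two-sided permutation p 0.1, the smallest that 3 against 3 can give). Kcnk5, a K2P channel of epithelia, was at 7.65, 6.96 and 6.99 in WT and 6.83, 6.63 and 6.38 in KO lungs (−0.59 ± 0.26, adjusted p 0.829), and −0.363 without WT lung 1. Kcnh3 was at 5.003, 5.31 and 5.45 in WT and 6.10, 5.82 and 5.91 in KO lungs (0.69 ± 0.26, adjusted p 0.806). The number with an unadjusted p under 0.05 was 1 without WT lung 1 or KO lung 2 and 6 without WT lung 3. For the other cardiac marks the 95% intervals of KO minus WT in lung were −0.27 to 0.79 for Kcnj2, −0.68 to 0.87 for Kcnh2 and −1.09 to 0.31 for Kcnd2.

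In heart, 55 of the 92 genes were tested and 0 called by limma (13 of 15303 genes, 0.0850%, were called in all). For the 4 cardiac marks the 95% intervals of KO minus WT were −0.43 to 0.18 for Kcnj2, −0.17 to 0.40 for Kcnq1, −0.17 to 0.47 for Kcnh2 and −0.33 to 0.22 for Kcnd2. An unadjusted p under 0.05 was reached by 8 of the 55, all with higher values in KO, against 7.46% of all genes (1141, of which 729 had higher values in KO), and limma-voom gave 0 calls and 7. KO and WT hearts did not overlap for 9 of the 55, against 13.0%. Among them Kcnq3, a subunit of a slow current of neurons, was at 3.23, 3.59 and 2.04 in WT and 5.30, 4.89 and 3.71 in KO hearts (1.68 ± 0.60, adjusted p 0.609). Kcnmb1, the large-conductance subunit of smooth muscle, was at 4.94, 5.63 and 5.21 against 6.41, 6.32 and 5.66 (0.87 ± 0.31, adjusted p 0.609). Kcnn4, Kcnc4, Kcnip4 and Kcna7 had log2 differences of 1.17, 2.19, 1.24 and 0.50, with adjusted p from 0.650 to 0.666. WT heart 3 was at 0 for Kcnc4, and without it the difference was 1.08. WT hearts 1 to 3 had 33906290, 20381284 and 18392292 estimated counts, and KO hearts 31784742 to 35862932. In WT heart 3, Kcnq3 (2.04) and Kcnip4 (2.24) lay below the level of 3 counts (2.80). The part of depth in these differences was not tested. The number of channel genes with an unadjusted p under 0.05 was 1 without KO heart 1 (593 of all genes, in place of 1141), 4 without KO heart 3 (742) and 5 without WT heart 3 (1303).

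Markers of other cell types moved with these values. The summed value of 5 smooth muscle markers was 13.21 to 13.50 in WT and 14 to 14.24 in KO hearts, and 4 of the 5 had all KO above all WT hearts. The summed value of 7 neuron markers was 7.04 to 8.14 in WT and 9.14 to 9.90 in KO hearts, and all 7 had every KO above every WT heart. None of these markers was at 0 in all WT hearts or called (all 5 smooth muscle and 4 neuron markers were tested), and their part in the channel values was not tested.

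**Figure D4:**
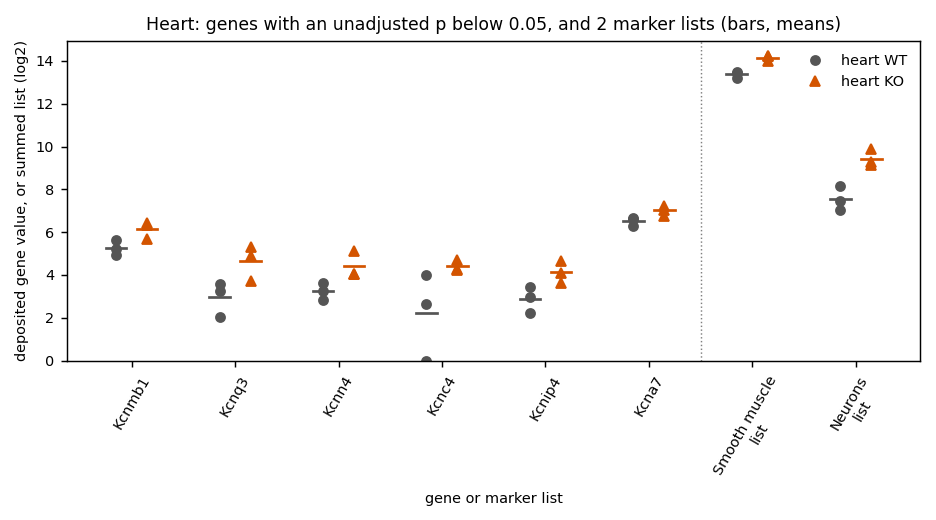
Gene values (log2) in the 3 WT hearts (circles) and 3 KO hearts (triangles) of 6 of the 8 potassium channel genes with an unadjusted p under 0.05, with the summed values of the smooth muscle and neuron marker lists and bars at the means. KO hearts lie above WT hearts for every gene and list shown, and 0 of the 8 genes passed the adjusted threshold.

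The difference of the genotype effect between organs was tested for 68 of the 92 genes over all 12 libraries, and limma called 0 (1 of 17666 genes, 0.00566%, was called in all). An unadjusted p under 0.05 was reached by 4, against 7.88% of all genes, and limma-voom gave 0 calls and 3. Without WT heart 1 the number was 9, and without KO heart 2 or KO lung 2 it was 2. For Kcnq1 the KO minus WT difference was lower in lung than in heart by −0.58 ± 0.18 (95% interval −0.98 to −0.19, adjusted p 0.526). This value ran from −0.654 to −0.284 over the alternatives. Kcna1 (1.38, adjusted p 0.599) and Kcnb2 (−1.84, adjusted p 0.624) were also among the 4. In the partner list, 0 of 26 genes in lung, 0 of 26 in heart and 0 of 29 for the difference were called.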

How the data were processed

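RNA of 12 libraries, the heart and lung of 3 WT and 3 KO male mice, was prepared as stranded total RNA and sequenced on the NextSeq. The authors quantified reads against GENCODE vM33 transcripts (mm39) with Salmon and deposited log2 values for 55679 genes and 147907 transcripts, with a mark for detected genes. Transcript values are log2 of 1 + the estimated count. Values of genes with 1 transcript carry a further library constant of −0.63 to 0.80, whose method is not given in the sources used here. Columns of other samples in these tables numbered 0.

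The 92 genes were tested within fits over all genes with limma 3.58.1 (lmFit, eBayes with trend, R 4.3.3) on the deposited gene values, without pairing by mouse. Genes at 3.46 (log2 of 1 + 10) or more in at least 3 libraries were tested. Calls took the study's thresholds (Benjamini-Hochberg adjusted p under 0.05, fold of at least 1.5, largest group mean of at least 6). Transcripts were fitted after addition of the constant, with no group mean threshold. Depth limits low genes, and floors of 3 estimated counts cover counting error only. Levels per length used GENCODE vM39 lengths, matched for 396 of 405 transcripts of these genes. Copies were searched with blastn 2.17.0 (at least 95% identity over at least 500 bases), among transcripts that the deposited table holds. The main gene fits were run on simulated data with large planted changes in genes with a mean of at least 6. The planted changes did not cover low genes or small differences, and the other fits were not run this way. The alternatives were gene values summed from transcripts, other scalings, filters, thresholds and fits, the mouse as a block, and each library left out.

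Named genes were the 4 cardiac marks, up to 12 called genes in each direction between WT organs with the largest differences and no overlap, all genes called or with an unadjusted p under 0.05 between genotypes or in the difference, the 2 highest levels per length in each class and organ, and up to 5 called partner genes in each direction. A few genes and sequences that these rules name are counted but not reported here. Other genes in the text were named after their values were seen. The genes, lists and rules were chosen with earlier results of these data known. Heart and lung of a mouse share its identifier, and the correlations of their deviations from group means were 0.049, 0.136 and −0.024 in WT and 0.020, −0.068 and −0.036 in KO. Identifier prefixes are not shared between genotypes. The labels do not say what a prefix stands for, so whatever it marks cannot be told apart from genotype.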

Additional observations from a re-analysis of the deposited data

How the results depend on the processing

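Between organs, 40 to 44 of the genes were called in WT and 42 to 45 in KO under the other scalings, tests and filters and with each library left out (40 to 42 and 42 to 45). The exceptions were a filter that asked for the value in every library, which tests fewer genes and left 23 in WT (8 higher in lung, 15 in heart) and 31 in KO, and calls without the group mean threshold (53 and 54). With the mouse as a replicate block the calls were 41 in WT, 44 in KO and 0 for the difference between organs, as without it. The pairing took the transcripts called from 72 to 67 in WT and from 84 to 75 in KO (added after the data were seen). Scaling to the total moved the median of all WT genes to 0.73 (6759 lung and 2391 heart calls, against 4945 and 3413), and without 7SL and 7SK to 1.17 (8854 and 1814), while the channel calls were 19 and 23, and 21 and 23. The direction turned for Kcnq1 (0.27 and 0.69 in WT on these scales, 0.035 without 7SL and 7SK in KO) and for Kcnmb1 (0.27 and 0.67 in WT, 0.22 and 0.31 in KO, and from −0.317 to 0.0289 with 1 library left out in WT, positive without WT heart 2). The cause was not tested. No genotype comparison called a channel gene under any alternative run. Unadjusted p under 0.05 were reached by 1 to 6 genes in lung, 1 to 9 in heart and 2 to 9 for the difference when 1 library was left out, and by 7 in lung without the variance trend. Genes near 3 counts are limited by depth.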
